A study of Rattus norvegicus with 7 samples.

Results

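The regions described here are the peaks of the orphan nuclear receptor NR2F2 in S16 cells that meet no peak of any other list of the series. S16 is an untreated rat Schwann cell line, mapped for NR2F2 by CUT&RUN, in which an antibody directs micrococcal nuclease to the DNA around the bound protein. The members were selected on the measured positions of peaks: an NR2F2 peak was kept when it shared not even 1 bp with a peak of H3K27ac, YY1, RXRG or TEAD1 in S16 or of SREBP1 in nerve. Of 41812 NR2F2 peaks outside the mitochondrial genome, 11574 (27.7%) were kept, and they are called unaccompanied below. All 6 lists together held 283804 peaks.

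YY1, RXRG and TEAD1 were mapped by CUT&RUN in the same line, H3K27ac by ChIP-seq in the same line, and SREBP1 by ChIP-seq in sciatic nerve of wild-type rats at postnatal day 15. There was 1 library per target and the deposited lists hold positions without a peak height, so that neither replicate error nor read depth was known. The values below describe these lists, and no test between classes of peaks was made. The samples include no control for CUT&RUN, and background calls cannot be told apart from binding sites. Positions are on build rn5, counting from 1, and peaks are named by position because no annotation or sequence of that build was used here.

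NR2F2, also known as COUP-TFII, binds DNA as a dimer at repeats of a short hormone receptor half-site and is known as a developmental regulator, for the most part a repressor. RXRG, a retinoid X receptor, is the common dimer partner of other nuclear receptors. H3K27ac marks active promoters and enhancers. YY1 is a zinc finger regulator needed for myelination, TEAD1 carries the coactivators YAP and TAZ to DNA, and SREBP1 activates genes of lipid synthesis, of which myelinating Schwann cells make heavy use.

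Acetylation did most to set the membership. Of the 30238 NR2F2 peaks left out, 7956 (26.3%) met H3K27ac and nothing else. RXRG was the only list met by 1679 (5.55%), TEAD1 by 324, YY1 by 308 and SREBP1 by 32. The edge of the rule divided few peaks: 6 members abutted a peak of another list with no base between them, and 49 lay less than 10 bp from one. On the other side, 44 NR2F2 peaks were left out for a largest overlap of 1 to 10 bp. The members abutting an H3K27ac peak, 4 in all, included chr7:97628720-97629054 (335 bp) and chr13:60878378-60878672 (295 bp).

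Unaccompanied peaks were narrow. Their median width was 242.5 bp, with the middle 50% between 204 and 311 bp, against 340 bp (248 to 489 bp) for the other NR2F2 peaks. Peaks in H3K27ac without a factor had a median of 282 bp, those with a factor outside H3K27ac 284 bp, and those with both 389 bp. The narrowest width in the NR2F2 list, 203 bp, was also its most crowded point: 2846 unaccompanied peaks (24.6%) had exactly this width, against 8.35% of the others. Of the 5371 NR2F2 peaks at 203 bp, 53.0% were unaccompanied. Over 4 width classes of nearly equal size the unaccompanied share went from 47.2% (203 to 229 bp) through 33.1% and 23.6% to 6.72% (436 to 3470 bp). Wide peaks overlap other peaks more easily, so that the rule itself ties width to membership.

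**Figure D1:**
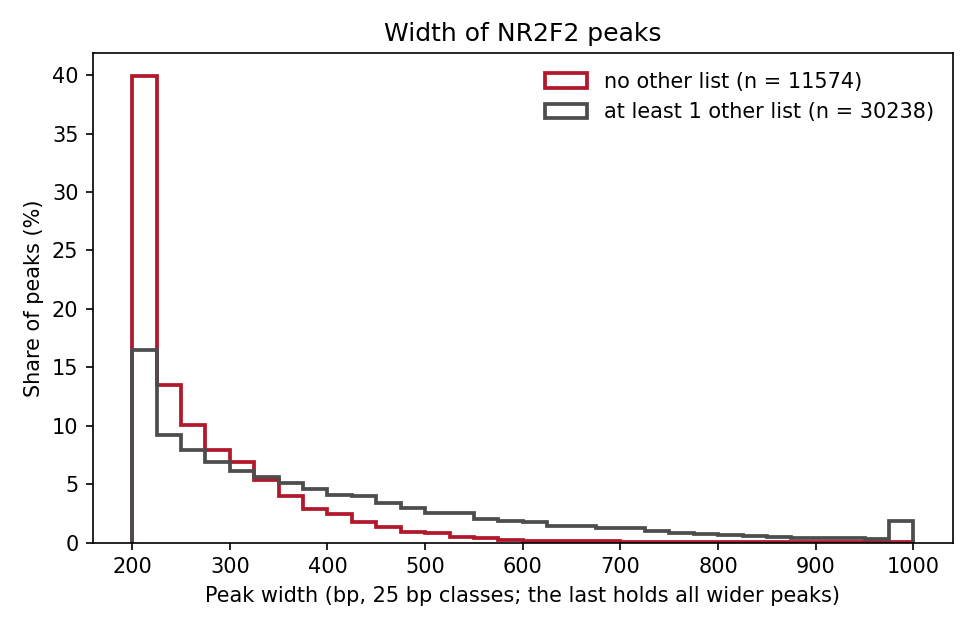
Share of NR2F2 peaks (vertical axis, %) by width in classes of 25 bp (horizontal axis, bp), for the 11574 peaks that meet no other list and the 30238 that meet at least 1. The first class, which holds the 203 bp peaks, towers over the rest in the unaccompanied group, and the line of the other peaks runs on beyond 500 bp.

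Wide unaccompanied peaks existed nonetheless. Above 500 bp there were 324 (2.80%, against 23.6% of the other NR2F2 peaks), and above 1000 bp there were 6. The widest was at chr6:133697200-133698628 (1429 bp). It was 2084 bp from H3K27ac, 12583 bp from RXRG and 247729 bp from the nearest NR2F2 peak. The next were chr1:264350869-264352114 (1246 bp), 679 bp from H3K27ac and 2481 bp from TEAD1, and chr1:154705894-154707048 (1155 bp), which lay only 125 bp from a nerve SREBP1 peak but 13639 bp from H3K27ac. They were followed by chr16:71532081-71533173 (1093 bp), 2013 bp from H3K27ac, and chr5:173441012-173442090 (1079 bp), 1531 bp from RXRG and 1737 bp from H3K27ac. These 5 do not stand for wide members as a class. The 3157 members wider than 303 bp, the median of the NR2F2 list, had a median gap to H3K27ac of 10178 bp, against 9513 bp for all members. Within 1 kb of H3K27ac lay 8.24% of them, against 9.64% of all members.

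The distance to acetylated chromatin was measured as the number of bases between a peak and the nearest H3K27ac peak. Its median over the 11536 members with an H3K27ac peak on the same chromosome or scaffold was 9513 bp, with the middle 50% between 3377 and 30838 bp. Within 1000 bp lay 1112 members (9.64%), within 10000 bp 5898 (51.1%), and 708 were more than 100000 bp away. Of all bases outside H3K27ac on placed chromosomes, 2809 Mb that include any unsequenced stretches, 6.89% lay within 1000 bp of an H3K27ac edge and 38.4% within 10000 bp, with a median of 17608 bp. The gaps of unaccompanied NR2F2 peaks were thus shorter at the median than the distances of bases outside H3K27ac, with 9.64% against 6.89% within 1000 bp. Gaps run from the edge of a peak and the other distances from single bases, so that the measures are unlike at short range. The 2886 NR2F2 peaks with a factor but no acetylation had a shorter median gap of 6386 bp, and 14.8% of them were within 1000 bp.

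Peaks of the other targets that met no list had shorter median gaps to H3K27ac: 3174 bp for TEAD1, 3824 bp for YY1, 5753 bp for nerve SREBP1 and 6944 bp for RXRG, with 30.2%, 24.3%, 22.9% and 11.1% within 1000 bp. The lists differ in number and width of peaks, which these values do not allow for.

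Counted per Mb of sequence at a given distance, by peak midpoints, unaccompanied NR2F2 peaks were nearly level close to acetylation: 4.72 per Mb within 0.5 kb of an H3K27ac edge, 5.21 from 0.5 to 1 kb, 5.10 from 1 to 2 kb and 5.19 from 2 to 5 kb. The density was highest from 5 to 10 kb, at 6.10 per Mb, and then went down to 4.32 (10 to 20 kb), 3.65 (20 to 50 kb), 3.21 (50 to 100 kb) and 1.77 (beyond 100 kb). The mean over all distances was 4.10 per Mb. The first class is lowered by the rule, since a midpoint close to the edge belongs to a peak that overlaps. Members wider than 303 bp, the median of the NR2F2 list, also peaked from 5 to 10 kb (1.79 per Mb), and for members of 203 bp that class (1.41) was level with 0.5 to 1 kb (1.41). RXRG peaks meeting no list were densest from 1 to 2 kb (14.4 per Mb) and had fallen to 10.4 from 5 to 10 kb. TEAD1 peaks meeting no list were densest next to acetylation (6.58 per Mb within 0.5 kb) and were at 1.27 from 5 to 10 kb.

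**Figure D2:**
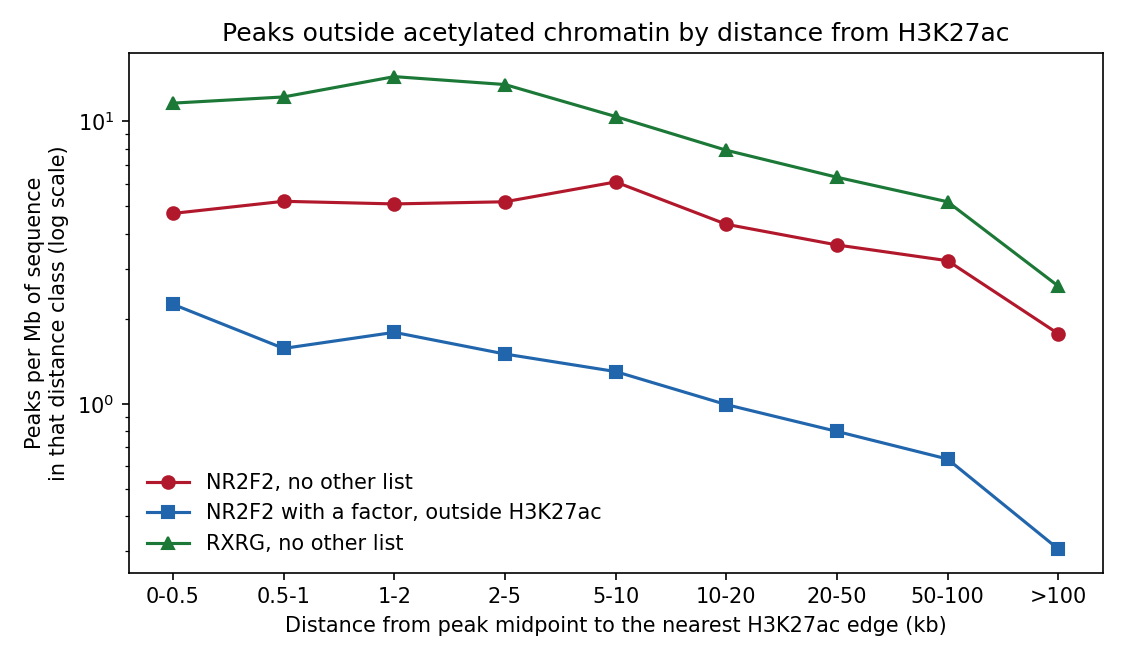
Peaks per Mb of sequence (vertical log axis) by distance from the peak midpoint to the nearest H3K27ac edge (horizontal axis, kb), outside H3K27ac on placed chromosomes, 1 library per target. Unaccompanied NR2F2 peaks stay near 5 per Mb up to 5 kb and reach 6.10 from 5 to 10 kb, while unaccompanied RXRG peaks are densest at 1 to 2 kb.

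Few members sat in narrow gaps between acetylated regions. An H3K27ac peak within 5 kb on both sides was found for 797 members (6.89%), in stretches free of acetylation with a median length of 5275 bp. With 2000 bp on each side the number was 109, and with 1000 bp it was 31. Of the 1112 members with acetylation within 1000 bp on either side, 2.79% had it on both. These numbers stand without a like share for the sequence outside H3K27ac or for other peaks.

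RXRG was the nearest of the factors. The median gap was 16100 bp to RXRG, 35749.5 bp to YY1, 49289 bp to TEAD1 and 52511 bp to nerve SREBP1, and RXRG also had the most peaks of the 4 lists (47935, against 38704, 26404 and 29435). Near misses were also most frequent for RXRG: 433 members had it less than 500 bp away, against 97 for TEAD1, 86 for YY1 and 66 for SREBP1. RXRG peaks were the narrowest as well, with a median of 184 bp against 302 to 485 bp for the other factors. These counts do not allow for number or width of peaks. For RXRG the share of members per kb of gap was highest next to the peak, 7.51% below 500 bp against 3.45% from 1 to 5 kb. For H3K27ac this share was likewise highest there, 10.7% against 5.93%. For YY1 it was lower next to the peak (1.49%) than from 1 to 5 kb (2.48%), for SREBP1 likewise (1.14% and 2.07%), and for TEAD1 it was level (1.68% and 1.77%). Peaks shared by NR2F2 and RXRG outside acetylation, which the rule leaves out, numbered 1979 and had a median gap to H3K27ac of 7757 bp.

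Far from everything else there were still members. The nearest peak of any of the 5 other lists was at a median of 5372.5 bp, and for 203 members it was more than 100000 bp away. The member farthest from H3K27ac, chr6:24105464-24106190 (727 bp), lay 581902 bp from it and 201689 bp from the nearest RXRG peak. It was followed by chr13:35555262-35555529 (268 bp), 557184 bp from H3K27ac but 43047 bp from RXRG, and chr5:69880178-69880451 (274 bp), 492830 bp from H3K27ac with another NR2F2 peak 1036 bp away. Distance hardly went with width: the median was 233 bp for members within 1 kb of H3K27ac, 247 bp from 5 to 10 kb and 248 bp beyond 100 kb, and the share at 203 bp was 26.7%, 23.5% and 22.6%. An RXRG peak outside acetylation lay within 5 kb of 13.1% of the members nearest to H3K27ac, of 16.3% of those 1 to 5 kb from it and of 7.91% of those beyond 100 kb.

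The gaps had a preferred length near 5 kb, which was looked at after the gaps were seen. In classes of 500 bp, the number of members with their nearest NR2F2 peak 4 to 4.5 kb away was 153. It rose to 235 from 4.5 to 5 kb and 533 from 5 to 5.5 kb, and went back to 277 from 5.5 to 6 kb and 195 from 6 to 6.5 kb. The gap to H3K27ac gave 295 members from 4 to 4.5 kb, 593 from 5 to 5.5 kb and 190 from 6 to 6.5 kb. The excess was narrow: the fullest class of 100 bp was 5000 to 5100 bp for NR2F2, with 125 members, and 5100 to 5200 bp for H3K27ac, with 150. On 19 of the 21 chromosomes the 5 to 5.5 kb class held more members than either the 4 to 4.5 or the 6 to 6.5 kb class for NR2F2, and on 21 of 21 for H3K27ac. In all, 1226 members (10.6%, median width 250 bp) had their nearest NR2F2 or H3K27ac peak 5 to 6 kb away.

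The same length stood out for the other S16 lists and not for SREBP1. These lists share sites: of all NR2F2 peaks, 65.4% met H3K27ac, 36.9% YY1, 34.8% RXRG and 24.0% TEAD1. A neighbouring site can thus be counted for several lists, and the counts are not independent. From 5 to 5.5 kb there were 429 members with RXRG, 285 with YY1 and 186 with TEAD1 as against 179, 123 and 97 from 4 to 4.5 kb. For nerve SREBP1 the numbers were 106 and 118. Other NR2F2 peaks had it too, with 1630 from 5 to 5.5 kb against 350 from 4 to 4.5 kb and 506 from 6 to 6.5 kb between NR2F2 peaks. Within each of the other lists on its own there was a rise as well, but not always a crest. From 4 to 4.5 kb to 5 to 5.5 kb the number of peaks went from 4422 to 6278 for H3K27ac and 628 to 979 for YY1. It went from 616 to 1182 for RXRG, 276 to 618 for TEAD1 and 242 to 651 for SREBP1. From 6 to 6.5 kb it was 3518, 799, 952, 440 and 597 in the same order. YY1 and SREBP1 had no fall right after the rise, with 982 and 685 peaks from 5.5 to 6 kb. For members, the excess at 5 to 5.5 kb was larger beside wide NR2F2 peaks. With a nearest NR2F2 peak of 436 bp or more, 246 members lay at 5 to 5.5 kb and 37 at 4 to 4.5 kb, a ratio of 6.65. With a nearest NR2F2 peak of 229 bp or less the numbers were 77 and 51, a ratio of 1.51. MACS2, a peak caller among the tools named by the submitters, can judge a peak against the reads in a window around it. No source used here gives its settings, and its part in the 5 kb length, and so in the crest of the density from 5 to 10 kb, was not tested.

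**Figure D3:**
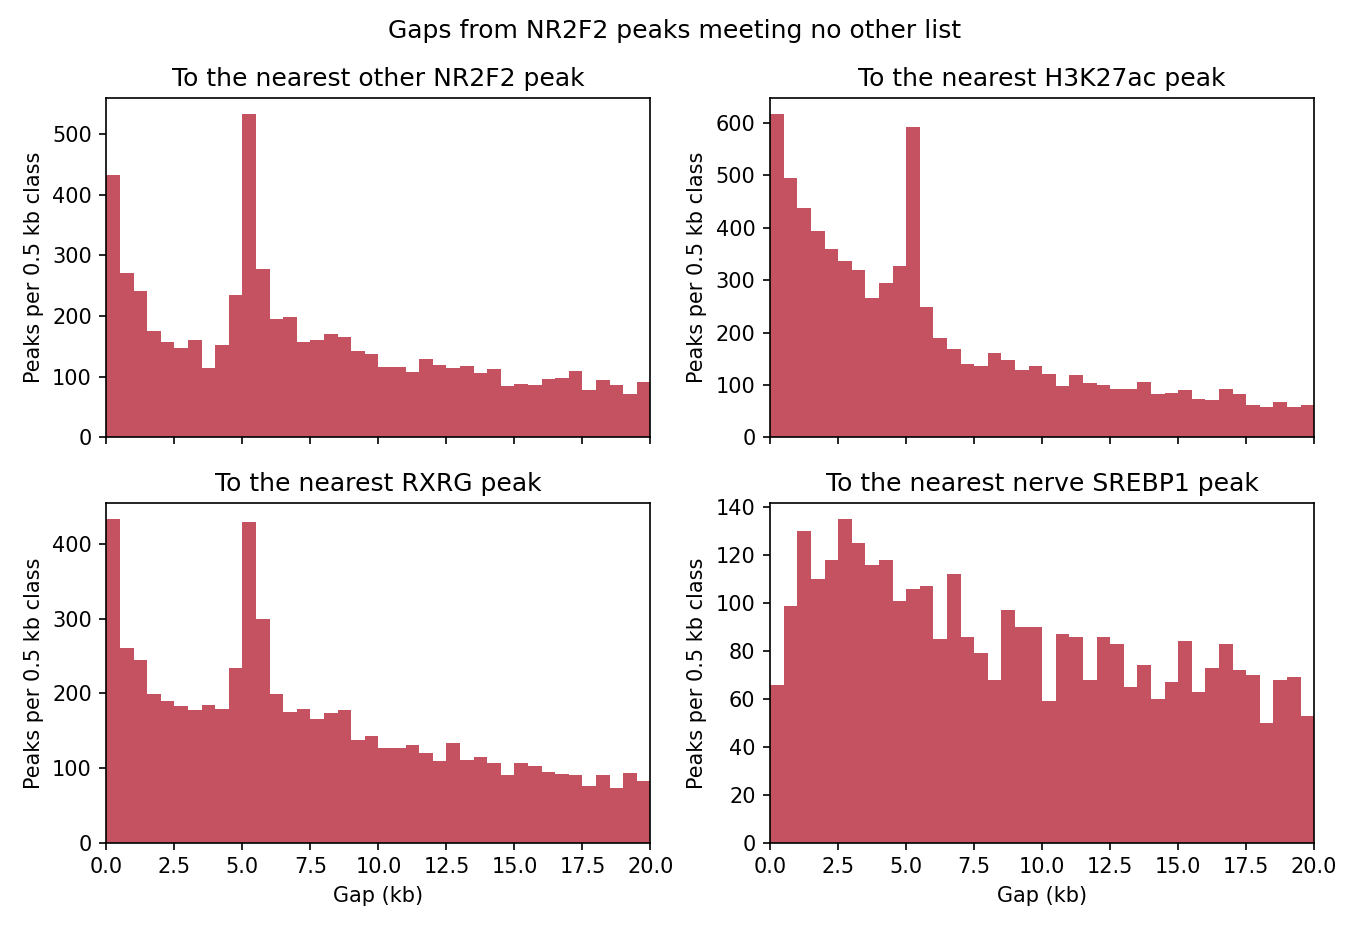
Number of unaccompanied NR2F2 peaks (vertical axis, per class of 0.5 kb) by the gap to the nearest other NR2F2, H3K27ac, RXRG and nerve SREBP1 peak (horizontal axes, kb, up to 20 kb). A single class at 5 to 5.5 kb stands above its neighbours for NR2F2 (533), H3K27ac (593) and RXRG (429), and none does for SREBP1 (106).

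Within the NR2F2 list the members were somewhat more widely spaced than the rest. The median gap to the nearest NR2F2 peak of any class was 17236.5 bp, against 13397 bp for the other NR2F2 peaks. At short range the classes lay further apart: 6.10% of members and 13.6% of the others had an NR2F2 peak within 1000 bp. Gaps shorter than 152 bp did not occur in the list. The nearest NR2F2 neighbour of a member was in acetylated chromatin in 57.0% of cases and was itself a member in 34.8%. For the other NR2F2 peaks these shares were 69.6% and 24.0%, and over the whole list 27.7% of peaks were members. Among neighbours no more than 10000 bp away, members made up 34.7% beside a member and 20.6% beside another NR2F2 peak.

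Clusters of members were small. Joining NR2F2 peaks across gaps of up to 10 kb left 7347 members (63.5%) with no partner at all, against 56.6% of the other NR2F2 peaks. Another 1079 (9.32%) were joined to members alone, and 3148 (27.2%) to a group that held other NR2F2 peaks. Joined among themselves at the same distance, 1737 members (15.0%) fell into 811 clusters, of which 715 were pairs, 82 held 3 members and 14 held 4 or more. The share was 7.30% with 5 kb and 45.2% with 50 kb, so that it is set by the joining distance chosen, and the preferred gap near 5 kb lies within that range.

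The largest cluster was at chr9:3182313-3224285, with 7 members of 210 to 467 bp over 42.0 kb. It was not free of other peaks: 2 H3K27ac, 2 RXRG and 2 accompanied NR2F2 peaks lay between its members, whose gaps to H3K27ac ran from 1634 to 12526 bp. YY1 and TEAD1 peaks inside clusters were not counted. Both occurred between members of this cluster, 4175 and 4222 bp from the member at chr9:3197496-3197860. The cluster at chr1:40381016-40399333 held 5 members over 18.3 kb, among 2 H3K27ac peaks, 1 RXRG peak and 1 other NR2F2 peak. TEAD1 also lay between its members, 382 bp from the member at chr1:40386859-40387231 and 1800 bp from that at chr1:40396713-40396963. The third cluster, at chr7:19844144-19852072, was the tightest, with 5 members in 7.93 kb and no peak of H3K27ac, RXRG or other NR2F2 between them. Its members measured 427, 203, 344, 203 and 497 bp in order of position, and the last of them was 1161 bp from H3K27ac and 1454 bp from RXRG. The nearest SREBP1 peak was 940923 bp from the first.

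Along the genome the members were spread over nearly all of the 591 bins of 5 Mb on placed chromosomes. The median bin held 17, the middle 50% of bins 12 to 25, the fullest 92 and 22 bins none. The fullest 60 bins held 23.5% of the members, and 23.4% of the other NR2F2 peaks fell in their own fullest 60. Counts of members went with those of other NR2F2 peaks across bins (Spearman's rho 0.69), and less with all RXRG peaks (0.58) and unaccompanied RXRG (0.51). For TEAD1, H3K27ac, YY1 and nerve SREBP1 the values were 0.50, 0.49, 0.45 and 0.32. These values describe 591 bins of the same libraries, which share mappable length, depth and, for the first, the list itself.

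**Figure D4:**
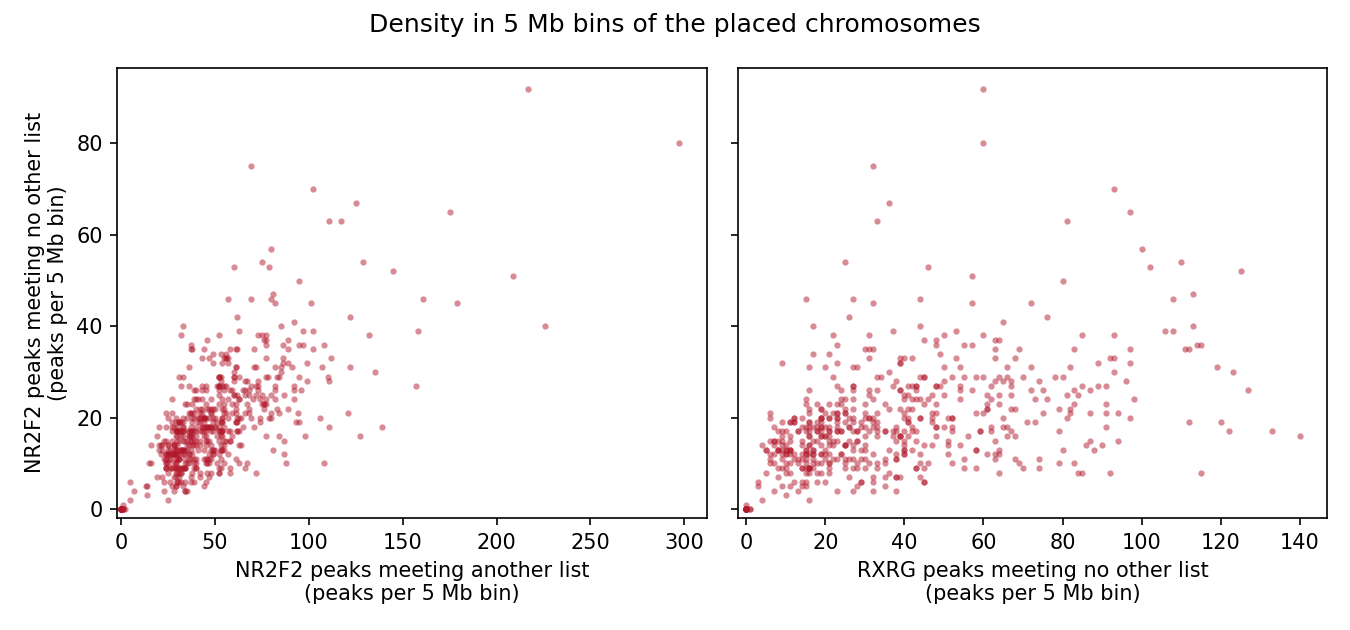
Unaccompanied NR2F2 peaks per 5 Mb bin (vertical axis) against NR2F2 peaks that meet another list (left) and unaccompanied RXRG peaks (right), 591 bins of placed chromosomes, 1 point per bin. The fullest bin has 92 members beside 217 other NR2F2 peaks, and most bins lie below 25.

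The fullest bins were on chromosome 7 from 20 to 25 Mb (92 members, 217 other NR2F2 peaks), chromosome 19 from 35 to 40 Mb (80 and 297) and chromosome 2 from 180 to 185 Mb (75 and 69). Then came chromosome 7 from 135 to 140 Mb (70 and 102) and the first 5 Mb of chromosome 9 (67 and 125). The bins of chromosomes 7 (20 to 25 Mb) and 19 were crowded with every S16 list, with 286 and 402 H3K27ac peaks against a median of 152 per bin. The bin of chromosome 2 was not: it had 89 H3K27ac, 42 YY1, 38 TEAD1 and 16 SREBP1 peaks, below the medians of 152, 56, 41 and 48, but 74 RXRG peaks, above the median of 67. Unaccompanied peaks made up 52.1% of its NR2F2 peaks.

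The unaccompanied share varied over the genome. In the 562 bins with at least 20 NR2F2 peaks its median was 27.7%, with the middle 50% from 22.4 to 33.3%. It was highest on chromosome 14 from 95 to 100 Mb (40 of 73, 54.8%), on chromosome 19 from 30 to 35 Mb (38 of 70, 54.3%) and in the bin of chromosome 2 above. It was lowest on chromosome 8 from 130 to 135 Mb (2 of 27, 7.41%) and on chromosome 10 from 90 to 95 Mb (10 of 118, 8.47%) and from 70 to 75 Mb (8 of 80, 10.0%). Those on chromosome 10 had 359 and 317 H3K27ac peaks, above the median of 152 per bin. The bin of chromosome 8 had 71, below it, and is cut short, since the last peak of that chromosome ends at 132.4 Mb. Across the 562 bins the share went down with the number of H3K27ac peaks (rho -0.33) and hardly with that of NR2F2 peaks (rho -0.052), although the rule leaves out what H3K27ac meets and so builds in part of the former.

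By chromosome the members ranged from 2.09 per Mb on chromosome 17 to 7.80 on chromosome 9, with 7.78 on chromosome 7 and 5.64 on chromosome 19. The other NR2F2 peaks were dense on the same ones, at 16.4, 17.4 and 14.6 per Mb on chromosomes 9, 7 and 19. Chromosome 10 differed from these, with 15.1 other NR2F2 peaks per Mb but 4.09 members per Mb, close to the median of 4.02 over the 21 chromosomes. The unaccompanied share ran in a narrower range, from 21.4% on chromosome 10 to 32.3% on chromosome 13. Chromosome 10 had the most H3K27ac peaks per Mb (57.6), the narrowest members (median 227 bp) and the largest share of members at 203 bp (32.9%, against 19.3% on chromosome 20, the lowest). The X chromosome had the fewest H3K27ac peaks per Mb (14.6) and the longest median gap to them (17170 bp), and 30.2% of its NR2F2 peaks were unaccompanied. The median width of members stayed between 227 and 250 bp on all 21 chromosomes.

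**Figure D5:**
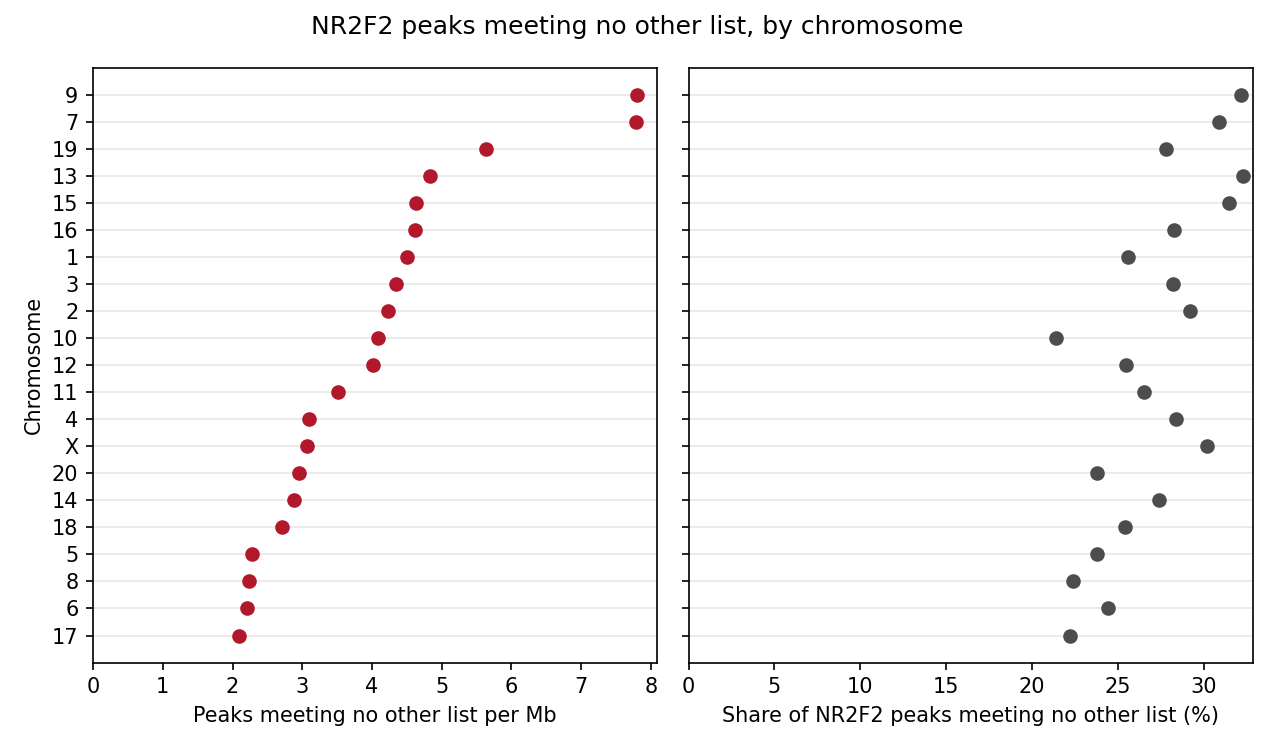
Unaccompanied NR2F2 peaks per Mb (left) and as a share of the NR2F2 peaks in % (right) for each of 21 chromosomes, ordered by the density on the left. Chromosomes 9 and 7 stand apart in density (7.80 and 7.78 per Mb), while the share runs from 21.4 to 32.3%.

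On scaffolds without a full chromosomal place, 42 of 97 NR2F2 peaks (43.3%) were unaccompanied, against 27.6% on placed chromosomes. The YY1, RXRG, TEAD1 and SREBP1 lists had no peak on such scaffolds, so that a peak there could be kept out by H3K27ac alone.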

How the data were processed

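The 6 deposited peak lists give chromosome, start and end on build rn5. Tools listed in the submitters' processing notes are MACS2, Bowtie2, bedtools, deepTools and bcl2fastq (2.20.0.422), without role, order or settings. No peak threshold or use of controls is given in the sources used here. The deposited score of the SREBP1 list is the same in every peak and was not used. The sciatic nerve input was not analysed here.

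Mitochondrial peaks were dropped. Overlap of at least 1 bp counted as a meeting, and gaps are bases between peak edges on the same chromosome. Bins of 5 Mb took a peak by its midpoint. Width stood in for the planned score, of which there was none. Regions were named by rule: the 5 widest members, the 3 farthest from H3K27ac, the 3 largest clusters, the 5 fullest bins and the 3 bins of highest share. The abutting members, the bins of lowest share and the chromosomes were chosen after their values were seen. The members and the measures were chosen with earlier results of these data known. Functions were tested against direct enumeration. Python 3.11.15, NumPy 2.4.6, pandas 2.3.3, SciPy 1.17.1 and Matplotlib 3.10.9 were used.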

Additional observations from a re-analysis of the deposited data

Results flagged for a closer look

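The mitochondrial genome, left out above, held 13 NR2F2 peaks, more than a preset floor of 3 counts, which is no statistical bound. Peaks there were not particular to NR2F2: the YY1, RXRG, TEAD1 and H3K27ac lists held 9, 16, 9 and 2, and the SREBP1 list none. None of the 13 met the rule for unaccompanied peaks, since each overlapped a mitochondrial peak of another list.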

How the results depend on the processing

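The 8 results were recomputed under other settings, which gave 44 values. Of these, 23 stayed within the exact 95% binomial interval of the share (Clopper-Pearson) or of the median, or within 1.5 times the count, and 21 moved. With an overlap of 50% of the shorter peak, the median gap to H3K27ac was 8439 bp, the share within 1 kb of it 14.1%, that with H3K27ac within 5 kb on both sides 11.3% and that in clusters 15.8%. With the other lists extended by 500 bp these were 11017.5 bp, 4.38%, 5.61% and 13.9%, and the median gap to NR2F2 was 18085 bp. For the measures of distance to H3K27ac, the direction of these moves is built into the settings. The 50% rule lets in peaks that overlap H3K27ac, and the extension takes out every member less than 500 bp from it. NR2F2 peaks wider than their median gave 3157 members of median width 366 bp, 10178 bp to H3K27ac, 8.24% within 1 kb, 5.48% with acetylation on both sides, 38480 bp to the nearest NR2F2 peak of such width, 4.72% in clusters and 5 members per bin, as fewer peaks were kept. Other distances gave 5.36% (500 bp from H3K27ac), 0.942% (2 kb on each side), 7.30% (joining within 5 kb) and 45.2% (within 50 kb). The direction of these 4 moves, and that of the median width of 366 bp, is likewise built into the settings. No result moved without the nerve SREBP1 list or without unplaced scaffolds, nor did the median bin when bins were shifted by 2.5 Mb. Peak height and depth are unknown, so that no stricter threshold was applied. The intervals treat peaks as independent, which neighbouring peaks are not. No paired analysis was possible because there is 1 sample per target.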
